A study of Rattus norvegicus with 167 samples.

Results

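The comparison described here is that of the lesion site on day 20 after complete transection of the rat spinal cord, between animals whose gap was bridged by a chitosan tube that carried neurotrophin-3 (NT3) and lesion controls (LC). It rests on 6 of the 167 arrays of the series: all 3 arrays titled for the lesion site, NT3 and day 20 (replicates 1, 2 and 3), and all 3 titled for the lesion site, LC and day 20 (replicates 2, 3 and 5). LC replicate 5 stands apart from the other LC arrays, so the main differences and counts are given with it and without it. The animals were adult female Wistar rats. In both groups the thoracic cord was cut at T7/8 and a 5 mm segment was taken out. The gap then held the NT3-chitosan tube in one group and nothing in the other. RNA came from the 5 mm of tissue at the lesion site and was read on Affymetrix arrays. An empty tube (ET) was measured at the lesion site on day 3 alone, so on day 20 the tube and the NT3 it carried cannot be told apart. Nothing in the labels ties each replicate to its own animal. The p-values therefore reflect the spread between samples of the same group, which may be technical. That spread was pooled over all 42 arrays of the fit, not taken from the 6 compared arrays alone. In bulk tissue, fewer cells of a type and less RNA per cell cannot be told apart.

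Neurotrophin-3 is a secreted growth factor that signals mainly through the receptor TrkC (gene Ntrk3) and supports large sensory neurons and axon growth. Chitosan is a polysaccharide used as a scaffold. A transected cord fills with blood-derived macrophages, lymphocytes, fibroblasts, vessels and Schwann cells, while neurons and oligodendrocytes at the site are lost, and the tissue next to it holds dorsal roots with their ganglia, vertebral bone and back muscle.

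All values are log2 expression, and a difference is the NT3 mean minus the LC mean, so a difference of 1 is 2-fold. Differences were tested with limma in 1 fit of 42 arrays (39 of the lesion site and 3 of uninjured cord), with Benjamini-Hochberg adjustment over 12041 genes. Genes under an adjusted p of 0.05 are said to have passed the test, and all adjusted p-values below are of this kind. In brackets, replicate 5 means LC replicate 5. Ntf3, the gene of the factor in the tube, lay below the expression filter, at 5.07 to 5.39 in the NT3 arrays and 5.16 to 5.24 in the LC arrays. Array medians across the series lay between 7.10 and 7.25. Over all tested genes, arrays correlated at 0.986 to 0.994 within NT3, 0.974 to 0.986 within LC and 0.906 to 0.940 between the groups.

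On day 20 the NT3 lesion site carried more RNA of sensory neuron and general neuronal genes, of skeletal muscle and of Schwann cells. It carried less RNA of inflammatory cytokines, T cells, antigen presentation, macrophages and dividing cells. Of the 12041 genes, 4039 (33.5%) passed the test: 1708 (14.2%) were higher in NT3 and 2331 (19.4%) lower. The counts of list members given below are to be read beside these shares. At least 2-fold, 602 (5.00%) were higher and 377 (3.13%) lower. The arrays of the groups did not overlap in 5429 genes (45.1%), and 3794 (31.5%) both passed and did not overlap. Without LC replicate 5, 3498 genes (29.1%) passed, 1643 (13.6%) higher and 1855 (15.4%) lower. Both tests called 3153 genes in the same direction, which is 78.1% of the calls with all 6 arrays and 90.1% of those without replicate 5, and 0 genes in opposite directions. The median difference over all tested genes was -0.04 with all 6 arrays and -0.02 without replicate 5.

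**Figure D1:**
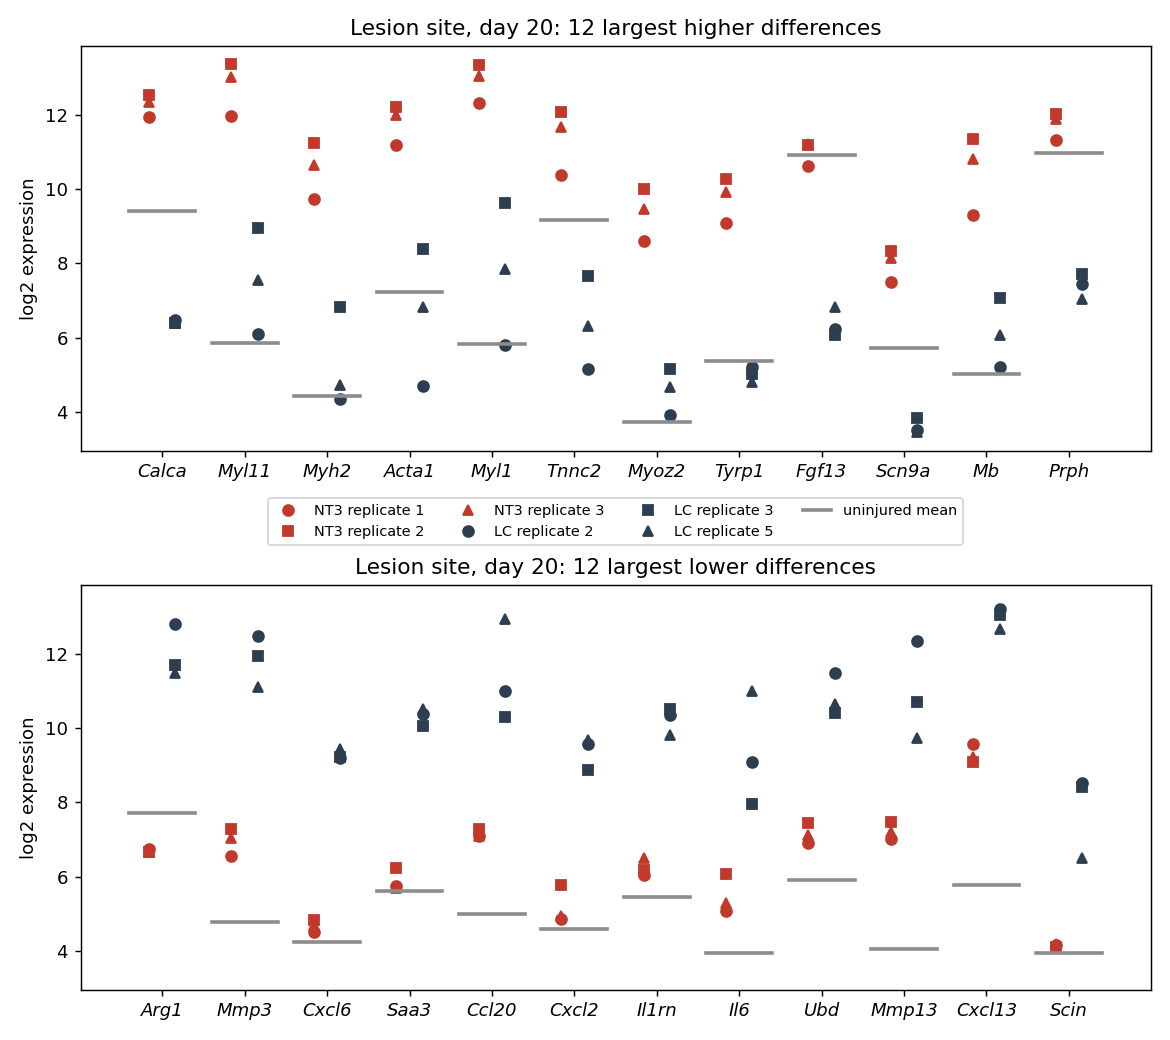
Log2 expression in each of the 6 arrays for the 12 genes with the largest higher differences (top) and the 12 with the largest lower differences (bottom) among genes that passed the test and did not overlap between groups. Red marks NT3, dark blue LC, with 1 marker shape per replicate, and grey bars are means of 3 uninjured cords. Calca was at 11.94 to 12.54 in NT3 against 6.38 to 6.47 in LC, and Arg1 at 6.66 to 6.74 against 11.49 to 12.80.

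**Figure D2:**
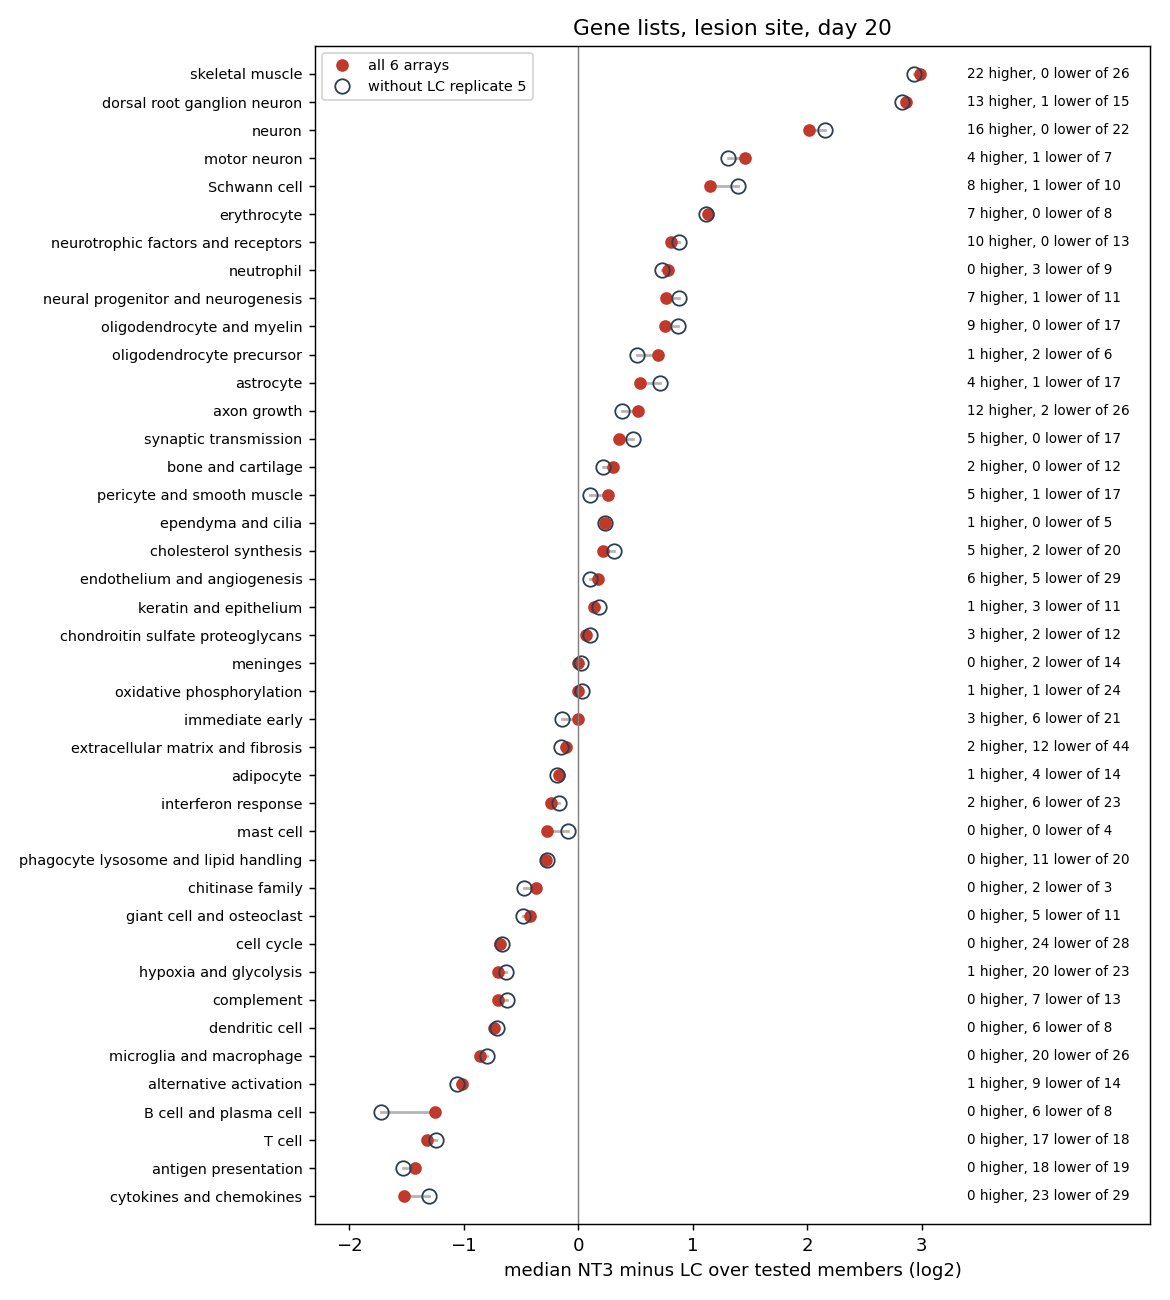
Median difference between NT3 and LC in log2 over the tested members of 41 gene lists, with all 6 arrays (filled red) and without LC replicate 5 (open), and the number of members that passed the test with all 6 arrays (right). Skeletal muscle (2.99) and dorsal root ganglion neuron (2.86) lie at the top, and cytokines and chemokines (-1.52) at the bottom. The medians of meninges, immediate early and oxidative phosphorylation genes lie at 0 and turn sign with quantile normalization or 75th percentile scaling.

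The largest single difference was in Calca, which encodes the sensory neuropeptide CGRP. It was at 11.94, 12.54 and 12.34 in NT3 replicates 1, 2 and 3, and at 6.47, 6.38 and 6.39 in LC replicates 2, 3 and 5. The groups lay far apart, the NT3 arrays above the uninjured mean of 9.40 and the LC arrays below it. The difference was 5.86 (SE 0.72, limma adjusted p = 1.86e-07), a 58.2-fold change, and 5.85 without LC replicate 5. Of the 3 probe sets of Calca, 1 had the opposite sign.

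Other genes of nociceptive and peptidergic sensory neurons had the same direction. Scn9a, a sodium channel of pain-sensing neurons, was at 7.51, 8.32 and 8.15 in NT3 and at 3.52, 3.84 and 3.45 in LC (difference 4.39, SE 0.76, limma adjusted p = 3.7e-05, and 4.32 without replicate 5). Tac1, the precursor of substance P, was at 9.92, 10.66 and 10.48 against 6.21, 6.17 and 7.51 (3.73, SE 0.73, limma adjusted p = 0.000164, and 4.16 without replicate 5). Prph, a neurofilament-family protein of peripheral neurons, was at 11.31, 12.03 and 11.89 against 7.45, 7.70 and 7.03 (4.35, SE 0.71, limma adjusted p = 1.55e-05, and 4.17 without replicate 5). In each of these genes all NT3 arrays lay above all LC arrays, and NT3 replicate 1 was the lowest of its group. The heat and capsaicin receptor Trpv1 differed by 2.73, the ATP receptor P2rx3 by 2.89, the sodium channels Scn11a and Scn10a by 2.86 and 1.46, and advillin (Avil) by 2.67. The marker list of dorsal root ganglion neurons had 15 tested members, of which 13 were higher and 1, Runx3, lower. Runx3, a transcription factor of sensory neurons and also of T cells, was at 7.56, 7.33 and 7.29 against 9.16, 8.80 and 8.97. The median of the list was 2.86, against -0.04 over all genes, and 2.83 without LC replicate 5 with the same counts. Relative to uninjured cord, its mean level was 1.18, 1.86 and 1.60 in the NT3 arrays and -1.03, -1.03 and -1.05 in the LC arrays.

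Fgf13, a regulator of sodium channels and microtubules in neurons, was at 10.62, 11.20 and 11.21 in NT3 and at 6.23, 6.06 and 6.81 in LC, a difference of 4.65 (SE 0.81, limma adjusted p = 4.02e-05, and 4.87 without replicate 5). Elavl2, a neuronal RNA-binding protein, was at 9.35, 10.10 and 9.87 against 6.08, 5.02 and 5.51 (4.24, SE 0.75, limma adjusted p = 4.57e-05, and 4.22 without replicate 5). Tyrp1, an enzyme of melanin synthesis, was at 9.09, 10.28 and 9.93 against 5.22, 5.02 and 4.80 (4.75, SE 0.73, limma adjusted p = 7.19e-06, and 4.65 without replicate 5). The groups were separate in these 3 genes. In NT3, Tyrp1 was above uninjured cord (mean 5.36), Fgf13 near it (10.91) and Elavl2 below it (11.40).

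Of 22 tested pan-neuronal genes 16 were higher in NT3 and 0 lower, with a median of 2.02 (16 and 2.16 without LC replicate 5). The neurofilaments led: Nefm was at 12.61, 13.12 and 12.99 against 8.99, 8.83 and 7.98 (4.30, SE 0.70, limma adjusted p = 1.46e-05), 19.8-fold with all arrays and 16-fold without LC replicate 5, and Nefh and Nefl differed by 4.29 and 4.17. Snap25, a protein of synaptic vesicle fusion, was at 11.50, 12.05 and 11.84 against 9.55, 8.30 and 8.99 (2.85, SE 0.69, limma adjusted p = 0.00176, and 2.87 without replicate 5). Neither group reached uninjured cord: relative to it, the list's mean level was -2.50 to -2.20 in the NT3 arrays and -4.61 to -4.31 in the LC arrays. Members that belong to inhibitory spinal neurons did not pass the test: Gad1, which makes GABA, differed by 0.64 (limma adjusted p = 0.354), and the GABA and glycine transporter Slc32a1 by 0.48. The glutamate transporter Slc17a6, which sensory neurons also use, was higher by 2.23. Which neurons this RNA came from was not tested. Of 17 synaptic transmission genes 5 were higher, led by the fusion regulator Cplx1 (3.21) and by Vamp1 (1.71) and Gabrb2 (1.48), both with 1 probe set of opposite sign. Among 7 motor neuron markers, Chat, which makes acetylcholine, was at 4.84, 4.99 and 4.84 in NT3 and at 4.99, 4.90 and 4.98 in LC, against 8.11 in uninjured cord. The 4 members of that list that were higher were Calca, Prph, Chodl and Slc5a7. The 1 lower member was Mmp9 (-2.02), which is also counted below among giant cell and matrix genes.

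Axon growth genes were higher in 12 and lower in 2 of 26 tested members (11 and 2 without LC replicate 5). Stmn2 (3.71), Tubb3 (3.27, 1 of its 2 probe sets of opposite sign), Stmn3 (3.13) and Nrn1 (2.97) led, and they are also expressed by resting neurons. Gap43, the growth cone protein, was at 11.76, 11.96 and 11.82 in NT3 and at 10.31, 10.28 and 11.12 in LC (1.28, SE 0.25, limma adjusted p = 0.000154, and 1.55 without replicate 5), with LC replicate 5 the highest of the LC arrays. Klf7, a transcription factor of axon growth, differed by 1.01. The injury-induced factor Atf3 went the other way, at 9.73, 9.51 and 9.65 against 10.51, 10.39 and 10.28 (-0.76).

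Skeletal muscle genes were higher in NT3 in 22 of 26 tested members and lower in 0, with a median of 2.99 (20 and 2.93 without LC replicate 5). Myl11, a myosin light chain of fast muscle, was at 11.97, 13.36 and 13.01 in NT3 and at 6.10, 8.94 and 7.56 in LC (5.25, SE 1.21, limma adjusted p = 0.00101, and 5.26 without replicate 5). Acta1, skeletal muscle actin, was at 11.20, 12.22 and 11.99 against 4.70, 8.38 and 6.82 (5.17, SE 1.17, limma adjusted p = 0.000885, and 5.26 without replicate 5). Myog, a transcription factor of differentiating muscle, was at 8.52, 10.22 and 9.59 against 6.22, 6.77 and 6.49 (2.95). Muscle RNA varied within each group as well: NT3 replicate 1 was the lowest NT3 array and LC replicate 3 the highest LC array in all 3 genes. The mean level of the list relative to uninjured cord was 2.48, 3.83 and 3.34 in NT3 and -0.30, 0.72 and 0.09 in LC. Erythroid genes were higher in 7 of 8 members, led by the haemoglobin chaperone Ahsp (8.66, 11.02 and 10.18 against 6.64, 7.64 and 7.83) and by Hemgn and Alas2, with NT3 replicate 1 again the lowest NT3 array. Among bone and cartilage genes 2 of 12 were higher, Cnmd (1.92) and Phex (1.72), near the share of 14.2% over all tested genes.

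Because the sensory neuron and muscle lists differed in level between the groups, the tests were repeated with each list's mean level as a covariate, an alternative chosen after seeing the data. With the muscle level in the model, 3696 genes passed, and the sensory neuron list had 13 higher and 1 lower. With the sensory neuron level in the model, 815 genes passed (186 higher and 629 lower). There 0 of the 22 pan-neuronal genes passed, with a median of 0.32 against 2.02 without a covariate. The muscle list had 11 higher, with a median of 3.55 against 2.99. On day 20 the sensory neuron level was 1.18 to 1.86 in NT3 and -1.05 to -1.03 in LC. That covariate therefore nearly follows the group, and a lost call need not be a smaller difference. A list that forms the covariate, Calca, Scn9a, Tac1 and Prph included, is adjusted for its own values, so its own counts in that model are not read. The differences of Nefm (0.77), Fgf13 (0.03) and Ret (0.35) did not pass with the sensory neuron level in the model. In the same model 14 of 29 cytokine genes, 12 of 18 T cell genes and 14 of 19 antigen presentation genes were lower. The medians of these lists there were -1.19, -1.33 and -1.33, against -1.52, -1.32 and -1.43 without a covariate.

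Schwann cells, the myelinating glia of peripheral nerve, had 8 of 10 tested markers higher in NT3 and 1, Egr2, lower (-0.48), a call lost with any array but LC replicate 2 left out. Ngfr, the low-affinity neurotrophin receptor p75 of immature and repair Schwann cells, was at 9.01, 9.12 and 9.11 in NT3 and at 6.63, 7.33 and 7.73 in LC (1.85, SE 0.29, limma adjusted p = 9.4e-06). Pou3f1, a transcription factor of promyelinating Schwann cells, was at 9.43, 9.08 and 9.10 against 6.76, 7.77 and 8.11 (1.66, SE 0.30, limma adjusted p = 6.87e-05). Gfra3, the receptor of artemin, was at 8.33, 8.85 and 8.51 against 6.70, 6.93 and 7.63 (1.48, SE 0.23, limma adjusted p = 9.48e-06). The groups did not overlap in any of these genes, and LC replicate 5 was the highest LC array in each. Without it their differences were 2.10, 1.94 and 1.75. The median of the list was 1.15, and 1.40 without replicate 5. The myelin protein genes Pmp22 and Prx differed by 0.63 and 1.04. With the sensory neuron level as a covariate, 1 of the 10 markers was higher and 0 were lower, and the median was 0.63. The differences of Ngfr, Pou3f1 and Gfra3 in that model were 0.64, 1.78 and 0.48.

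Of 13 tested neurotrophic factor and receptor genes 10 were higher in NT3 and 0 lower (9 and 0 without LC replicate 5). Among the ligands, Bdnf was at 6.69, 7.03 and 6.95 against 5.99, 5.69 and 5.60 (1.13, SE 0.20, limma adjusted p = 5.63e-05, and 1.04 without replicate 5), and Cntf differed by 0.81. Among the receptors, Ret, which signals for the GDNF family, was at 9.64, 10.21 and 9.95 against 6.59, 6.06 and 7.24 (9.87-fold higher, limma adjusted p = 5.49e-05), and its co-receptor Gfra1 was at 9.44, 9.47 and 9.41 against 8.02, 8.15 and 8.34 (1.27). Ntrk3, the receptor of neurotrophin-3 itself, was at 6.65, 6.94 and 6.63 against 5.63, 5.80 and 5.64 (1.05, SE 0.24, limma adjusted p = 0.000927, and 1.03 without replicate 5). All NT3 arrays were above all LC arrays in these genes, and Bdnf and Ntrk3 in NT3 were near or below their uninjured means of 6.83 and 7.68. Ntrk2, the receptor of BDNF, differed by 0.91 (limma adjusted p = 0.0242), with 1 of its 5 probe sets of opposite sign. That call ended when LC replicate 2, LC replicate 3 or NT3 replicate 1 was left out (limma adjusted p = 0.0716, 0.0989 and 0.0832).

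The central glia lists had smaller median differences than the Schwann cell list. Myelin and oligodendrocyte genes were higher in 9 of 17 members, with a median of 0.76, but in 3 when LC replicate 3 and in 4 when NT3 replicate 1 was left out. Mbp, a structural protein of myelin, was at 13.95, 13.55 and 13.87 in NT3 and at 13.15, 12.70 and 13.23 in LC (0.76, SE 0.19, limma adjusted p = 0.00254, and 0.87 without replicate 5). Sox10, a transcription factor of oligodendrocytes and Schwann cells, was at 9.21, 8.94 and 8.85 against 7.34, 7.70 and 8.39 (1.19, SE 0.26, limma adjusted p = 0.000531, and 1.48 without replicate 5). Both groups lay below uninjured cord in both genes (14.79 and 9.75). Gfap, the astrocyte intermediate filament, was at 13.42, 13.04 and 13.27 against 12.31, 12.05 and 12.81. Its groups did not overlap, but the difference of 0.86 (SE 0.44) did not pass the test (limma adjusted p = 0.132). In a fit of the 6 day 20 arrays alone it did (limma adjusted p = 0.0142), so its call depends on which arrays give the spread. Of 17 astrocyte genes 4 were higher and 1 lower, but 1 was higher when LC replicate 2, LC replicate 3 or any NT3 array was left out, and 5 were higher without LC replicate 5. Of 11 neural progenitor and neurogenesis genes 7 were higher and 1, Prom1 (-0.40), lower, a call lost without LC replicate 5, NT3 replicate 2 or NT3 replicate 3. Among the higher genes was Dcx, a microtubule protein of young neurons, at 6.79, 7.16 and 6.89 against 5.16, 5.40 and 4.98 (1.76, SE 0.20, limma adjusted p = 3.48e-08, and 1.66 without replicate 5). Without LC replicate 3, 4 of the list were higher. Sox2, a stem cell and glial transcription factor, differed by 1.45, with 1 of its 4 probe sets of opposite sign.

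Of 29 tested cytokines and chemokines, 23 were lower in NT3 and 0 higher (22 lower without LC replicate 5), with a median of -1.52 (-1.30 without it). The promoters of the 4 members with the largest fall are shown because these genes are classical targets of the transcription factor NF-kappaB, whose standard consensus motif was searched on both strands. Capitals mark matches, and overlapping matches run together. The sequences cover 250 bases before to 50 bases after the RefSeq transcription start in assembly GRCr8, 5′ to 3′ on the strand of the gene: Ccl20 at chr9:91836909-91837208 (plus strand), Cxcl2 at chr14:17467206-17467505 (minus strand), Il1rn at chr3:27520072-27520371 (plus strand) and Il6 at chr4:5894526-5894825 (minus strand).
Ccl20 promoter: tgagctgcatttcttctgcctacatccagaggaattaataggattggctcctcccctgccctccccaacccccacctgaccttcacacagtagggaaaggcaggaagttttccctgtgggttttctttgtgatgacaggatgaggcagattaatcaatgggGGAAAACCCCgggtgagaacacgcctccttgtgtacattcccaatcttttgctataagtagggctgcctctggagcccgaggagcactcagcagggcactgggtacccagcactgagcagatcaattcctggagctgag
Cxcl2 promoter: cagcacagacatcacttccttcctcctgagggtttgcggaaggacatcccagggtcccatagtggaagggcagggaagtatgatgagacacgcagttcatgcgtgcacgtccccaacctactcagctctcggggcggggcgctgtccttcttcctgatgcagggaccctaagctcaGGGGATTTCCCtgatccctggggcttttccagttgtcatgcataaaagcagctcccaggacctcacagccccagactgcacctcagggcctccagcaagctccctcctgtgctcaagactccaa
Il1rn promoter: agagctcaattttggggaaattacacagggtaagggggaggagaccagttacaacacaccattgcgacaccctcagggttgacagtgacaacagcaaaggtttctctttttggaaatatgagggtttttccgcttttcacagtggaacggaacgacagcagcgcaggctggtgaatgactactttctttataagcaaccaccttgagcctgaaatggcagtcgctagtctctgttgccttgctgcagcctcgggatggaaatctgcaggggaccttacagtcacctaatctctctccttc
Il6 promoter: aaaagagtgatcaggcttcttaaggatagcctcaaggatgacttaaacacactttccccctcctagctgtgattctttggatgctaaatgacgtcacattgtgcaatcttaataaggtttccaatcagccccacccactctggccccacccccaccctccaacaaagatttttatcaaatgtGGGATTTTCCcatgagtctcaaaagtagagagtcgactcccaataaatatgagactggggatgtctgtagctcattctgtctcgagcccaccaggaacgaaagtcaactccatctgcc

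The consensus matched once in Ccl20, in 2 overlapping places in Cxcl2 and once in Il6, and nowhere in this window of Il1rn. Promoters were searched for 19 of the 23 cytokine genes that were lower in NT3 and for 4 of the other tested members, not for all. The consensus was found in 8 of the 19 (42.1%), in 0 of the 4 and in 2087 of all 27457 promoters (7.60%). A form of the motif that requires a TT pair in its later part was searched first, and the consensus replaced it after those counts were seen. That form was in 6 of the 19 (31.6%), in 1 of the 4 and in 1358 of all promoters (4.95%). A match is a description of the letters and shows no binding.

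Ccl20, which attracts dendritic cells and T helper cells, was at 7.09, 7.27 and 7.09 in NT3 and at 11.00, 10.29 and 12.95 in LC (-4.26, SE 0.45, limma adjusted p = 8.6e-09). Cxcl2, a neutrophil chemokine, was at 4.85, 5.77 and 4.95 against 9.58, 8.88 and 9.69 (-4.19, SE 0.42, limma adjusted p = 2.94e-09, and -4.04 without replicate 5). Il6, an acute inflammatory cytokine, was at 5.08, 6.08 and 5.30 against 9.09, 7.96 and 10.99 (-3.86, SE 0.42, limma adjusted p = 1.7e-08). Ccl20 and Il6 were highest in LC replicate 5, and their differences without it were -3.50 and -3.04. Il1rn, the antagonist of the interleukin-1 receptor, was at 6.03, 6.17 and 6.51 against 10.35, 10.52 and 9.81 (-3.99), and the agonists Il1a and Il1b differed by -3.10 and -3.09. Cxcl13, which attracts B cells, was at 9.57, 9.09 and 9.23 against 13.21, 13.05 and 12.67 (-3.68, SE 0.47, limma adjusted p = 3.08e-07, and -3.83 without replicate 5). For Il1rn and Cxcl13 LC replicate 5 was instead the lowest LC array, and neither gene's groups overlapped. Tnf differed by -0.68. The calls of Cxcl1 (-1.52) and Cxcl10 (-0.96) ended without LC replicate 5 (-0.86 and -0.89, limma adjusted p = 0.0553 and 0.0658), while Ccl5, Csf1, Cxcl12, Ccl19, Cx3cl1 and Ccl21 did not pass with all arrays.

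Further inflammatory genes with large falls were Cxcl6, another neutrophil chemokine, at 4.51, 4.82 and 4.69 against 9.19, 9.22 and 9.44 (-4.61, SE 0.27, limma adjusted p = 4.3e-14, and -4.53 without replicate 5), and the acute phase gene Saa3, at 5.74, 6.23 and 5.68 against 10.37, 10.05 and 10.51 (-4.43, SE 0.39, limma adjusted p = 1.82e-10, and -4.33 without replicate 5). In NT3 both were close to uninjured cord (4.24 and 5.61). Arg1, the arginase that marks alternatively activated macrophages, had the largest fall, at 6.74, 6.66 and 6.66 against 12.80, 11.71 and 11.49, 39.8-fold (-5.31, SE 0.30, limma adjusted p = 2.65e-14, and -5.57 without replicate 5). The NT3 arrays lay below the uninjured mean of 7.72. Ubd, a ubiquitin-like protein induced by inflammatory cytokines, was at 6.90, 7.44 and 7.12 against 11.49, 10.41 and 10.65 (-3.70, SE 0.56, limma adjusted p = 5.3e-06, and -3.80 without replicate 5). Scin, an actin-severing protein, was at 4.16, 4.11 and 4.18 against 8.53, 8.40 and 6.50 (-3.67, SE 0.31, limma adjusted p = 9.25e-11, and -4.32 without replicate 5), and LC replicate 5 was the lowest of the LC arrays. Of 14 alternative activation genes 9 were lower, among them the chemokine Ccl17 (-2.13), the lectin Clec10a (-1.66) and Il4r (-1.21), and 1, Retnla, was higher (0.55).

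Macrophage and microglia genes were lower in 20 of 26 members and higher in 0, with a median of -0.86 (21 and -0.80 without LC replicate 5). Cd14, the lipopolysaccharide co-receptor, was at 10.13, 9.97 and 10.16 in NT3 and at 12.53, 12.32 and 12.38 in LC (-2.32, SE 0.17, limma adjusted p = 5.88e-12, and -2.33 without replicate 5). Itgam, the integrin CD11b, was at 7.70, 7.22 and 7.71 against 9.76, 9.57 and 9.21 (-1.97, SE 0.16, limma adjusted p = 4.54e-11, and -2.12 without replicate 5). The pan-macrophage genes differed less: Cd68 was at 11.90, 11.42 and 11.66 against 12.33, 12.48 and 12.54 (-0.79), and Aif1 differed by -0.57 (limma adjusted p = 0.0477), a call that ended with any 1 of 5 arrays left out (LC replicate 5 being the exception). Gpnmb, a gene of lipid-laden macrophages, and P2ry12, the receptor of resting microglia, differed by -0.12 and 0.19 and did not pass. Relative to uninjured cord the list stood at 2.37 to 2.57 in NT3 and 3.29 to 3.57 in LC, so that both groups were raised. Complement genes were lower in 7 of 13 members with and without LC replicate 5, with C6 (-2.46), C3 (-2.39) and the anaphylatoxin receptor C5ar1 (-1.75) leading. Phagocyte lysosome and lipid handling genes were lower in 11 of 20, with a median of -0.28, and in 7 without NT3 replicate 2. Chitosan is made from chitin, and implants can draw multinucleated giant cells. Of those lists, 5 of 11 giant cell and osteoclast genes were lower, led by Mmp9 (-2.02) and Spp1 (-1.86), and 2 of 3 tested chitinase family genes, Chi3l1 (-0.70) and Ctbs (-0.37), were lower, with the call of Chi3l1 lost without LC replicate 5.

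T cell genes were lower in NT3 in 17 of 18 members, with a median of -1.32 (16 and -1.24 without LC replicate 5). Cd3e, a chain of the T cell receptor complex, was at 7.89, 7.95 and 7.75 in NT3 and at 10.45, 10.02 and 10.06 in LC (-2.31, SE 0.22, limma adjusted p = 8.45e-10, and -2.37 without replicate 5). Icos, a co-stimulator of activated T cells, was at 7.17, 7.27 and 7.14 against 9.70, 9.45 and 9.56 (-2.38, SE 0.13, limma adjusted p = 2.65e-14, and -2.38 without replicate 5). Both genes were tightly grouped and separate. Cd8a, of cytotoxic T cells, differed by -1.29, and Cd4 by -0.40. Antigen presentation genes were lower in 18 of 19, with a median of -1.43 and the same count without LC replicate 5. Cd74, the invariant chain of MHC class II, was at 12.73, 12.48 and 12.64 against 14.16, 14.15 and 13.78 (-1.41, SE 0.17, limma adjusted p = 1.39e-07, and -1.54 without replicate 5), and its transcriptional activator Ciita differed by -1.49. RT1-CE10, a class I gene of the rat MHC, was at 7.15, 7.33 and 7.56 against 10.05, 8.44 and 11.26 (-2.57). It varied widely among the LC arrays, and its difference without LC replicate 5 was -1.90. Dendritic cell genes were lower in 6 of 8. Clec9a, of cross-presenting dendritic cells, was at 6.33, 6.29 and 6.34 against 8.14, 8.09 and 8.78 (-2.02, SE 0.17, limma adjusted p = 1.45e-10, and -1.80 without replicate 5).

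B cell and plasma cell genes depended on single LC arrays. Mzb1, of antibody-secreting cells, was at 6.48, 5.83 and 6.30 in NT3 and at 11.30, 8.31 and 6.21 in LC. LC replicate 2 was high, replicate 3 intermediate and replicate 5 at the NT3 level, so the groups overlapped. The difference was -2.40 with all arrays, -3.60 without LC replicate 5 and -1.05 (limma adjusted p = 0.159) without LC replicate 2. Of 8 members 6 were lower, but 1 without LC replicate 2 and 3 without NT3 replicate 2. In a fit of the 6 day 20 arrays alone, Mzb1 and the members Pou2af1 and Jchain did not pass (limma adjusted p = 0.135, 0.185 and 0.074). Of 9 neutrophil markers 3 were lower and 0 higher, although the median of the list was 0.78. The receptors Csf3r (-1.86) and Cxcr2 (-1.24) and the siderophore-binding Lcn2 (-2.71) were lower, while the granule genes Defa5, Np4 and Camp differed by 2.28, 1.99 and 1.71 without passing. Defa5 was at 8.47, 11.46 and 10.86 in NT3 and at 6.84, 8.97 and 8.14 in LC, low in NT3 replicate 1 as the erythroid and muscle genes were. Without that array 3 of the 9 neutrophil markers were higher and 3 lower.

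Cell cycle genes were lower in 24 of 28 members and higher in 0, with a median of -0.68 (23 and -0.67 without LC replicate 5). Ccna2, cyclin A2, was at 7.18, 7.23 and 7.24 in NT3 and at 8.92, 8.31 and 8.01 in LC (-1.20, SE 0.18, limma adjusted p = 5.61e-06, and -1.40 without replicate 5). Mki67, a marker of dividing cells, was at 8.68, 9.03 and 8.69 against 10.02, 9.73 and 9.55 (-0.97, SE 0.22, limma adjusted p = 0.00104, and -1.08 without replicate 5). Both groups stayed above uninjured cord (4.94 and 5.64). Hypoxia and glycolysis genes were lower in 20 of 23 and higher in 1, with a median of -0.70 (18 lower and -0.63 without LC replicate 5). Car9, a hypoxia-induced carbonic anhydrase, was at 5.86, 6.16 and 6.05 against 7.86, 7.98 and 8.71 (-2.16, SE 0.29, limma adjusted p = 8.13e-07, and -1.89 without replicate 5), the NT3 arrays lying near the uninjured mean of 5.82. The glucose transporter Slc2a1 (-1.19), hexokinase 2 (Hk2, -1.65), lactate dehydrogenase (Ldha, -0.97), Vegfa (-1.01) and Hif1a (-0.70) were also lower. Of 24 oxidative phosphorylation genes 1 was lower and 1, Ndufa4 (0.51), was higher, a call lost with any of the 6 arrays left out.

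The matrix proteases Mmp3 and Mmp13 were lower in NT3. Mmp3, stromelysin-1, was at 6.55, 7.28 and 7.05 in NT3 and at 12.49, 11.95 and 11.12 in LC (-4.89, SE 0.56, limma adjusted p = 3.76e-08, and -5.26 without replicate 5). Mmp13, a collagenase, was at 7.01, 7.48 and 7.21 against 12.34, 10.71 and 9.72 (-3.69, SE 0.78, limma adjusted p = 0.000412, and -4.29 without replicate 5), and LC replicate 5 was the lowest LC array in both. With the muscle level as a covariate the difference of Mmp13 was -2.36 (limma adjusted p = 0.0551). Col1a1, the main fibrillar collagen chain, was at 13.60, 13.51 and 13.52 against 13.51, 13.68 and 13.61 and did not pass (-0.05, limma adjusted p = 0.769), with overlapping groups far above the uninjured mean of 8.31. Of 44 matrix genes 12 were lower, including fibronectin (Fn1, -0.50) and thrombospondin-2 (Thbs2, -1.09), and 2 were higher, elastin (Eln, 1.20) and Ogn (0.55), with 1 higher without NT3 replicate 1 or NT3 replicate 3. The median of the list was -0.11. Chondroitin sulfate proteoglycans, which hinder axon growth, were higher in 3 and lower in 2 of 12, but higher in 0 without LC replicate 5 and in 1 without LC replicate 3, NT3 replicate 1 or NT3 replicate 3, and lower in 0 without LC replicate 3. Of 29 endothelial and angiogenic genes 6 were higher and 5 lower, near the shares of 14.2% and 19.4% over all tested genes. Emcn, a sialomucin of capillaries and veins, was at 10.57, 11.13 and 11.11 against 9.77, 9.86 and 9.68 (1.17, SE 0.15, limma adjusted p = 3.08e-07, and 1.13 without replicate 5), while Pecam1, the pan-endothelial CD31, differed by 0.33 and did not pass (limma adjusted p = 0.138).

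The neighbouring time points show which of these differences were larger on day 20. The difference on day 20 was tested against the mean of the same difference on days 10 and 30. Days 10 and 30 use other arrays, but the day 20 arrays are those already compared above. In this test 1440 of 12041 genes (12%) passed, 477 (3.96%) in the direction of higher NT3 on day 20 and 963 (8.00%) in the direction of lower NT3. Scaling arrays to the 75th percentile made the split 617 and 594. Of the genes higher on day 20, 420 also passed here in that direction, and of the lower genes 819 did. Because the day 20 arrays are shared, genes picked for a large day 20 difference tend to pass here in the same direction. The counts of 420 and 819 are therefore no independent support for the day 20 differences.

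The sensory neuron list stood out from the neighbouring days in 12 of 15 members, and 1, Runx3, had a more negative difference on day 20. Calca differed between NT3 and LC by 0.43 on day 10 and by 1.25 on day 30, so the day 20 difference exceeded their mean by 5.02 (limma adjusted p = 0.000646). Of the pan-neuronal genes 13 of 22 passed in the same direction. Skeletal muscle genes did so in 2 of 26: the differences of Myl11 on days 10 and 30 were 3.55 and 4.13, and its excess on day 20 was 1.40 (limma adjusted p = 0.563). The mean level of the sensory neuron list in NT3 spanned -0.82 to 0.49 on day 10, 1.18 to 1.86 on day 20 and -0.81 to 0.55 on day 30. It was 0.36 to 1.77 on day 60 and 0.75 to 1.82 on day 90. In NT3 the ranges of days 60 and 90 overlapped that of day 20, and those of days 10 and 30 did not. The level in LC moved as well: it was -0.59 to 0.25 on day 10, -1.05 to -1.03 on day 20 and -1.20 to -0.28 on day 30. The LC range of day 20 lay below that of day 10 and within that of day 30. LC arrays spanned -0.27 to 1.17 on day 3, -1.02 to 0.58 on day 60 and -0.68 to -0.04 on day 90.

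**Figure D3:**
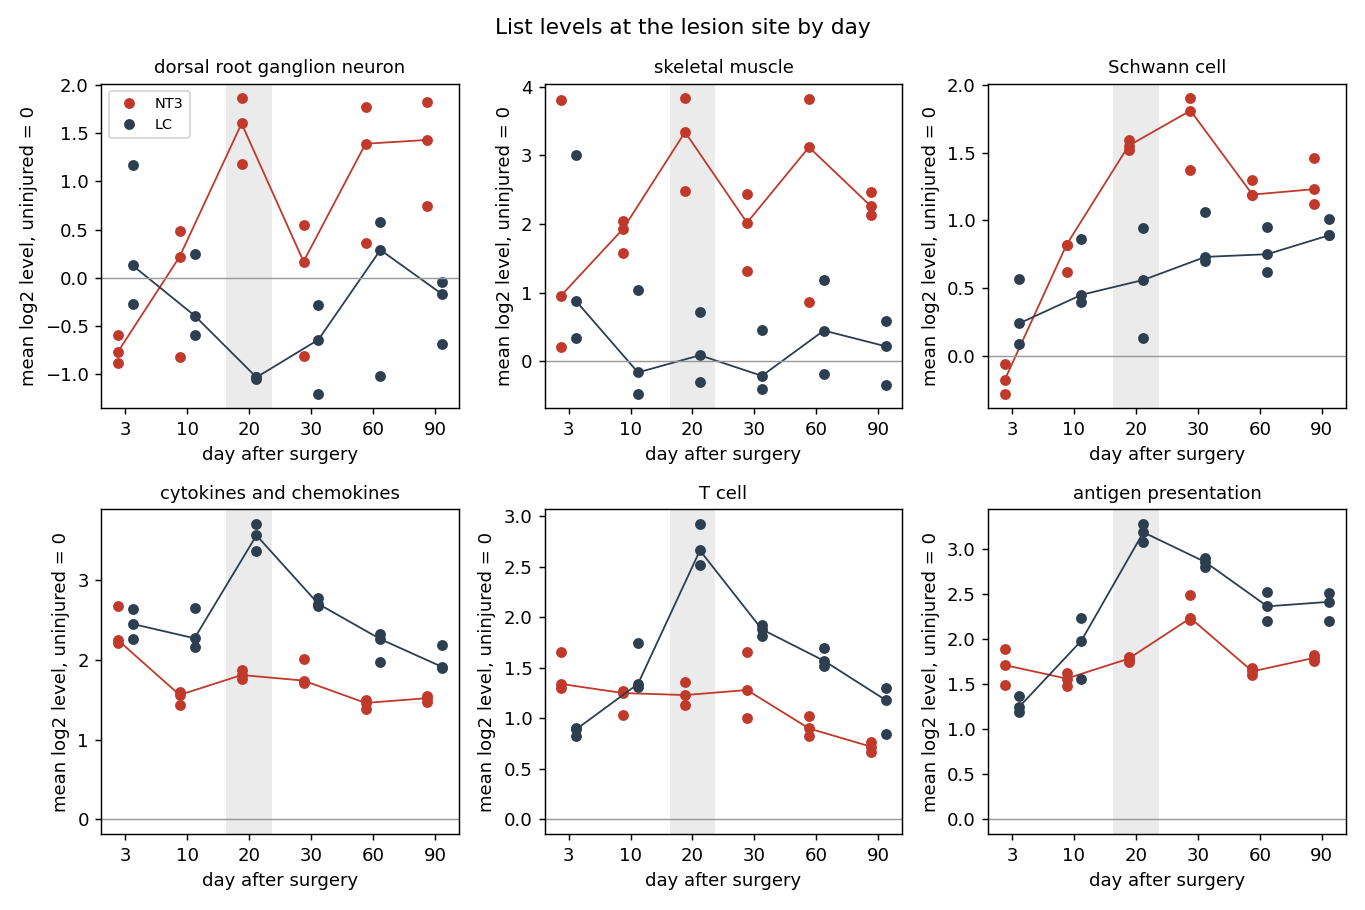
Mean log2 level of 6 gene lists in each lesion-site array of NT3 (red) and LC (dark blue) by day, with uninjured cord at 0 and lines through the medians of 3 arrays per group. Day 20 is shaded. The level of cytokines and chemokines in LC was 3.36 to 3.70 on day 20 against 2.16 to 2.65 on day 10 and 2.67 to 2.78 on day 30, while NT3 was at 1.76 to 1.87 on day 20.

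Among the days measured, LC had its highest levels of cytokine and T cell genes on day 20. The cytokine list in LC was at 2.16 to 2.65 on day 10, 3.36 to 3.70 on day 20 and 2.67 to 2.78 on day 30, and in NT3 at 1.43 to 1.60, 1.76 to 1.87 and 1.71 to 2.01. T cell genes in LC were at 1.31 to 1.74, 2.52 to 2.92 and 1.81 to 1.92 on the same days, and in NT3 at 1.03 to 1.27, 1.13 to 1.36 and 1.00 to 1.66. The day 20 arrays of LC lay above those of days 10 and 30 in both lists. In the test against days 10 and 30, 12 of 29 cytokine genes, 12 of 18 T cell genes and 15 of 19 antigen presentation genes had a more negative difference on day 20, and 3 of 26 macrophage genes did. Clec9a differed by 0.02 on day 10 and -0.03 on day 30, and its day 20 excess was -2.01 (limma adjusted p = 5.06e-07). Mmp13 differed by -0.02 on day 30 and its excess was -3.68 (limma adjusted p = 0.0123). Arg1, by contrast, was lower on all 3 days (-2.58, -5.31 and -4.43), with an excess of -1.81 (limma adjusted p = 0.00232). Bdnf differed by 0.05 and -0.06 on days 10 and 30 with an excess of 1.13 (limma adjusted p = 0.00422), and Ntrk3 had an excess of 1.09 (limma adjusted p = 0.0149). Dcx, at 1.59 and 1.94 on those days, had none (limma adjusted p = 0.999).

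**Figure D4:**
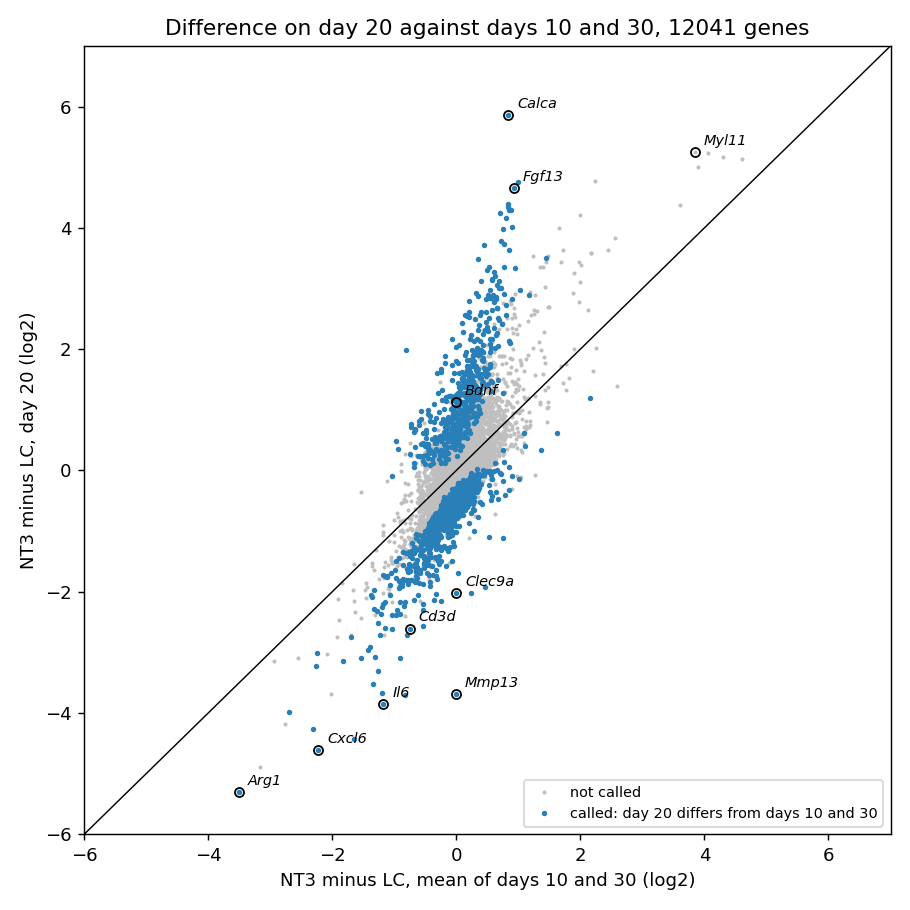
NT3 minus LC on day 20 (y axis, log2) against the mean of the same difference on days 10 and 30 (x axis, log2) for 12041 genes, with the 1440 genes that passed the test of the difference in blue and the line of equal values in black. Calca (5.86 on day 20) lies far above the line, Myl11 (5.25) near it, and Mmp13 (-3.69) far below it.

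LC replicate 5 differed from the mean of the other LC arrays by more than 1 in 155 genes (1.29%), against 87 and 60 genes for LC replicates 2 and 3 measured the same way and 0 to 100 for the NT3 arrays. By the SD of that difference over all tested genes the gap was small: 0.32 and 0.24 for LC replicates 2 and 3, and 0.34 for LC replicate 5. Lowest in it relative to the others were Mzb1 and Pou2af1, and a set of broadly expressed genes: Ythdf2, a reader of methylated RNA, was at 9.33 against 11.45 and 11.34, the chaperone Dnajb6 at 9.11 against 11.13 and 11.05, and Wtap, of the RNA methylation complex, at 9.48 against 11.54 and 11.30. These 3 were chosen after their values were seen. Their NT3 values were near those of the other LC arrays, at 11.50 to 11.62 for Ythdf2. Highest in it relative to the others were Il6, Ccl20, Rnd1, RT1-CE10, Rcor1 and Cxcl1. The 3′ minus 5′ difference of the beta-actin control probes, a measure of RNA integrity and labelling, was 0.69 in LC replicate 5, 1.28 and 1.11 in the other LC arrays, and 1.12 to 1.24 in NT3. With this measure as a covariate 4250 genes passed on day 20. Leaving out the array ended the calls of 886 genes and added 345. In the test against days 10 and 30, which 1440 genes passed with all arrays, 896 passed without LC replicate 5, 704 without NT3 replicate 2 and 846 without NT3 replicate 3.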

How the data were processed

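The authors' deposited table holds log2 values of 31099 probe sets on 167 Affymetrix arrays of rat spinal cord, computed with RMA in Affymetrix Expression Console after reading with GCOS, per the submitters' processing notes. Versions, and which arrays were normalised together, are not given in the sources used here. Of the probe sets 57 were controls, 20832 had 1 gene symbol, 436 had several and 9774 had none in the platform annotation. Through gene identifiers 20764 matched RefSeq (GRCr8), which changed 0 symbols and gave the promoters. Each of 14218 genes was represented by its probe set of highest mean, and the 12041 genes above the 40th percentile of an array in at least 3 arrays were tested.

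Group means of 42 arrays were fitted with limma 3.58.1 (R 4.3.3). The contrasts, two-sided with Benjamini-Hochberg adjustment, were NT3 minus LC on day 20, the same without LC replicate 5, and the day 20 difference minus the mean of days 10 and 30. Named genes were the 12 highest and 12 lowest separated calls with and without LC replicate 5, up to 4 called members per list, the 6 largest differences from days 10 and 30, and a fixed set of markers, among them Ntf3. Other list members were named after their values were seen. The members and the 41 lists were chosen with earlier results of these data known, and lists are described without a test. A list's level is the average of its tested members, with uninjured cord at 0.

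The alternatives were filters, normalisations, probe set means, other sets of arrays in the fit, array weights, a trended prior, a replicate block, each array left out, and, chosen after seeing the data, covariates for muscle, sensory neuron and beta-actin levels. The procedure was tested on simulated data: of 67, 67 and 66 genes changed by 0.5, 1 and 2 in the layout of the day 20 comparison, it recovered 29, 56 and 64, with 9 false calls. The simulated noise was independent between genes, whereas muscle and erythroid genes varied together between the real arrays. The number of false calls does not carry over to such shared variation. The number of arrays limits the precision.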

Additional observations from a re-analysis of the deposited data

Results flagged for a closer look

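The difference between NT3 and LC on day 20 departed from that on days 10 and 30 in 1440 of 12041 genes by the limma test of the difference itself, which is why it is listed for a closer look. The day 20 excess was in the direction of higher NT3 in 477 and of lower NT3 in 963.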

How the results depend on the processing

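Over the alternatives run, the number of genes that passed on day 20 was within 1.5 times of 4039 except with array weights (6743) and with the sensory neuron level as a covariate (815). Without LC replicate 5, the same covariate gave 826 against 3498. A fit of the 6 day 20 arrays alone gave 3302 genes on day 20, 1593 higher and 1709 lower. In the test against days 10 and 30 (1440), array weights gave 5167, the sensory neuron covariate 62 (1 higher and 61 lower) and a fit of all arrays 2305. Leaving out 1 array in turn gave 3143 to 3864 genes on day 20, 2115 to 3140 on top of the removal of LC replicate 5 (the lowest without LC replicate 2), and 704 to 1732 against days 10 and 30. Of the genes named by the rule, some changed sign under the sensory neuron covariate and under no other alternative, without passing the test there: on day 20 Scn9a (-0.23), Prph (-0.06), Stmn2 (-0.04), Tac1 (-0.37), Slc4a1 (-0.12), Tm7sf2 (-0.01) and Fabp4 (0.14), and against days 10 and 30 Scn9a (-0.29), Fgf13 (-0.12) and Tyrp1 (-0.03). Scn9a, Prph and Tac1 are members of the list that formed the covariate. The cause of the other changes was not tested.

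With the replicate number as a block, 3310 genes passed on day 20, 3310 without LC replicate 5, and 740 against days 10 and 30. NT3 and LC share the numbers 2 and 3 alone. The deviations of same-numbered arrays correlated at -0.10 and -0.02, and those of the other pairs at -0.09 to 0.11. With 3 arrays per group these values cannot tell whether a shared number stands for a shared batch or pairing. Replicate 5 is the only array with its number, so the block takes it out of the comparison.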

Other observations

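Interferon response genes were mixed, with 2 higher and 6 lower of 23 in NT3, and 1 higher without LC replicate 3, LC replicate 5, NT3 replicate 2 or NT3 replicate 3. Irf1, a transcription factor induced by interferon gamma, was at 9.60, 9.66 and 9.71 in NT3 and at 10.97, 10.83 and 10.97 in LC (-1.26, SE 0.14, limma adjusted p = 1.64e-08). The antiviral gene Rsad2 was at 10.01, 11.18 and 10.68 against 9.01, 9.32 and 9.33, higher by 1.40 (limma adjusted p = 0.0021). The groups were separate in both genes and opposite in direction.

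Of 20 cholesterol synthesis genes 5 were higher and 2 lower, led by Tm7sf2 (0.66), but 1 was higher and 1 lower without LC replicate 5, and 3, 3 and 2 were higher without LC replicate 3, NT3 replicate 2 and NT3 replicate 3. Pericyte and smooth muscle genes were higher in 5 of 17 and lower in 1, Cspg4 (-0.42), and higher in 3 without NT3 replicate 2. With the skeletal muscle level as a covariate 3 were higher and 3 lower, with a median of -0.12 against 0.26 without it. Mylk, a myosin kinase, was at 11.67, 11.75 and 11.75 against 10.62, 11.08 and 11.05 (0.80, SE 0.17, limma adjusted p = 0.000378). Among 14 adipocyte genes Car3, which skeletal muscle also expresses, was at 10.85, 12.14 and 12.04 against 7.44, 8.29 and 7.78 (3.84), and 4 others, including Lpl (-1.02) and Fabp4 (-0.97), were lower. Of 11 keratin and epithelial genes 1 was higher and 3 lower. Epcam, an epithelial adhesion gene, was the higher one (1.10), and the tight junction gene Cldn4 was among the lower (-1.48).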
